A study of Mus musculus with 2 samples.

Results

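Splicing factors and nuclear RNA-binding proteins were followed in epididymal white adipose tissue, a visceral fat depot, of mice on a high-fat diet and on normal chow. The members were the genes of 7 families, taken by symbol from probe sets with a single annotated gene: the SR proteins (Srsf followed by a number), the hnRNP proteins (Hnrnp), the Snrp proteins of small nuclear ribonucleoprotein particles, or snRNPs, the SF3 subunits (Sf3a and Sf3b), the U2AF subunits, the numbered LSm proteins and the PRPF proteins. This gave 197 of 45037 probe sets, for 74 of 18193 named genes. The high-fat diet sample was from a male C57BL/6 mouse given that diet over 7 weeks, and the chow sample from a male C57BL/6 mouse on a normal chow diet. Regular food was given until the dietary challenge began at 9 weeks of age. No diet duration is given for the chow sample, so its age at sampling is not known here. RNA of the whole fat pad was hybridised to an Affymetrix mouse array, 1 array per diet, so that the spread between animals is unknown and no test of the diet was possible. "Higher" and "lower" therefore describe these 2 samples only.

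Splicing removes introns from the primary transcript. The spliceosome that does this is built from the U1, U2, U4, U5 and U6 snRNPs, each a small nuclear RNA in a ring of Sm or LSm proteins with further proteins of its own. U1 marks the start of the intron, U2AF and the SF3 proteins bring U2 to its far end, and the U4/U6.U5 tri-snRNP with its PRPF proteins then joins and forms the catalytic centre. SR proteins bind exons and mostly favour their inclusion, whereas hnRNP proteins coat nascent RNA and often oppose it, so the balance between the families shapes alternative splicing. In fat cells such choices act on genes such as lipin, insulin receptor and Pparg, and Srsf10 is known in mice to be needed for fat cell differentiation.

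A probe set was called measured on an array where it reached the floor, that array's 40th percentile of intensity, and a gene was called measured where this held on at least 1 array. The floor was 27.9 on the high-fat diet array and 28.6 on the chow array. Of the 197 member probe sets 172 were measured on at least 1 array and 166 on both. Each gene was represented by its measured probe set with the highest mean log2 intensity. In this way 72 of the 74 members were measured, all of them on both arrays in the probe set used. The other members were Srsf12, with intensities of 2 on the high-fat diet and 2.5 on chow, and Snrpn, whose single-symbol probe set lay at 10.2 on the high-fat diet and 7.3 on chow. Array intensities of different genes cannot be ranked against each other, so each difference is taken within a probe set, between the arrays. Intensity ranges and sums over marker lists, given below, combine different genes and are rough descriptions only. The sums are weighted to the brightest genes.

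Most members were slightly lower on the high-fat diet. Of the 72 measured members 57 were lower and 15 higher, against 52.9% lower among all 14066 measured genes. On the log2 scale, the median difference (high-fat diet minus chow) was -0.22 for the members and -0.02 for all measured genes. The differences were small: the interquartile range ran from -0.40 to -0.03 for the members and from -0.24 to 0.20 for all genes. Only Lsm7 differed by 2-fold or more. It was lower, as were 1.35% of all genes, and 0 members were 2-fold or more higher, against 1.17% of all genes. At 1.5-fold, 7 members were lower, which is 9.72% against 6.4% of all genes, and 0 were higher, against 5.82% of all genes. The count of 1.5-fold lower members was thus near the background. As a yardstick of disagreement between probe sets, their differences scattered around the mean of their gene. The pooled SD was 0.32 log2 units over all genes and 0.33 over the members. This SD does not measure the spread between animals. Where probe sets read different parts of a transcript, that too may enter it. Lower by more than 0.32 were 24 members (33.3%, against 18.9% of all genes), higher by more than it was 1 (1.39%, against 16.1%), and 47 lay within it. In a bulk sample, fewer cells of a type and less RNA per cell cannot be told apart.

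**Figure D1:**
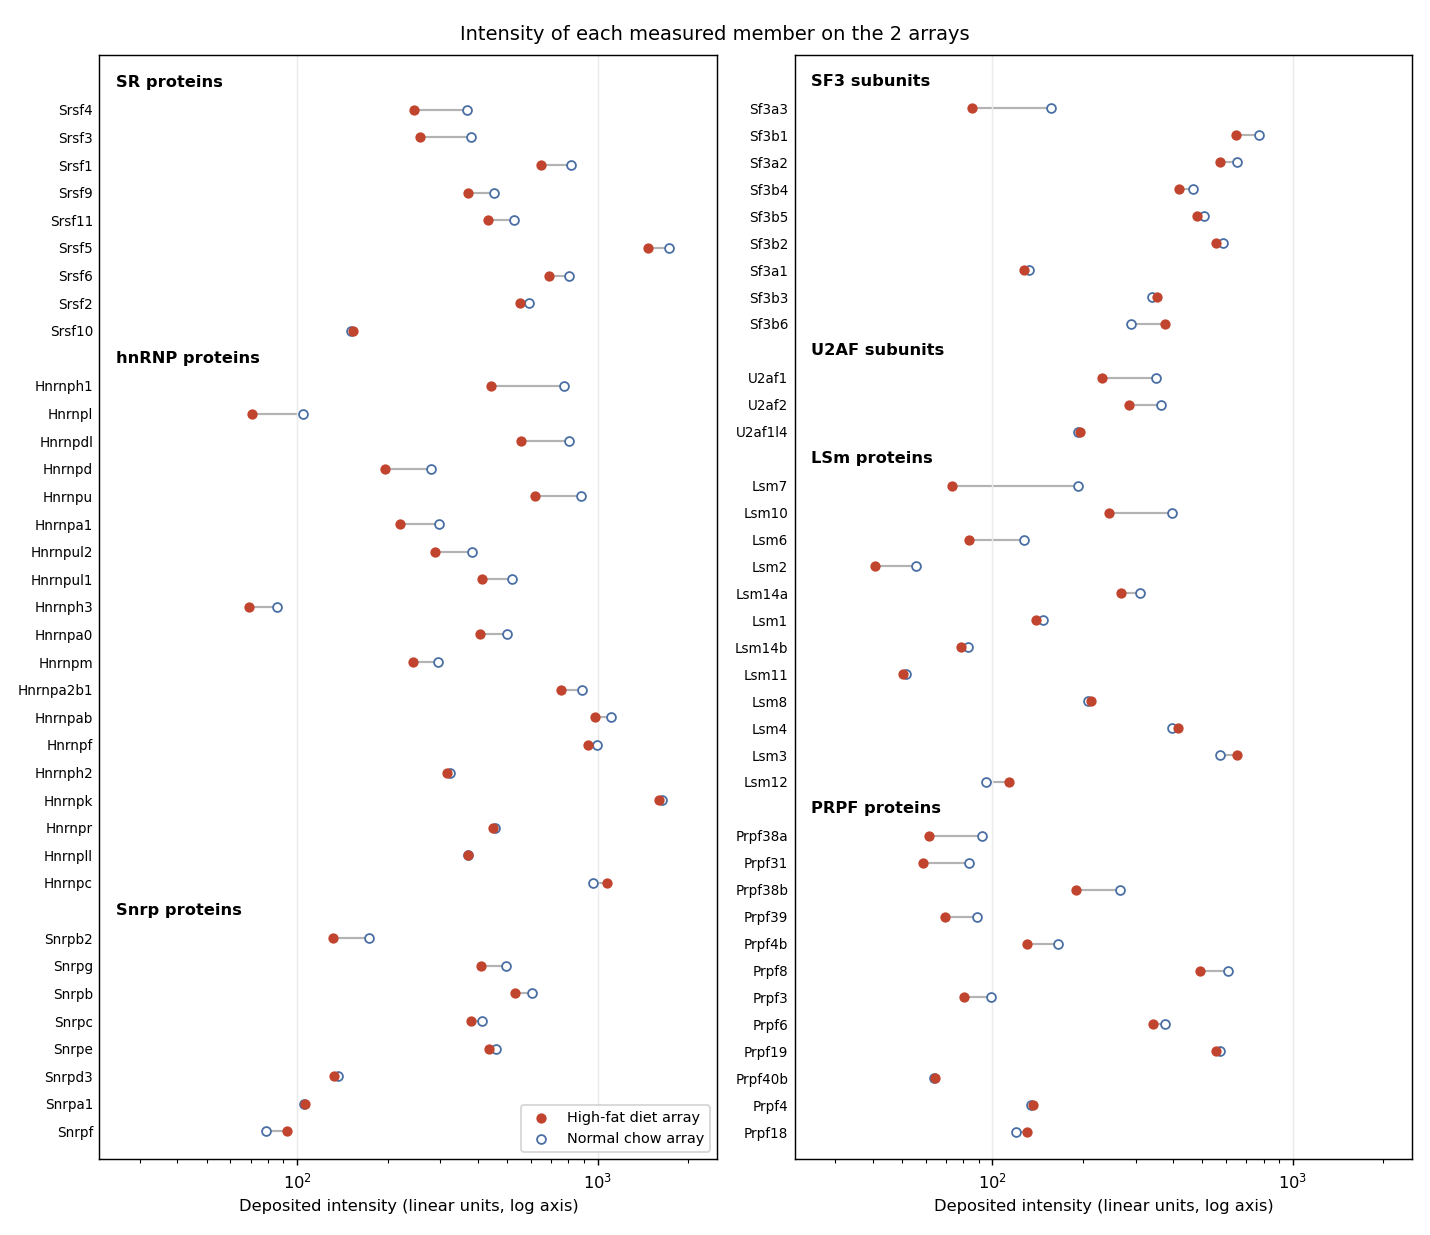
Deposited intensity (linear units, log axis) of each of the 72 measured members, in the probe set used for the gene, on the high-fat diet array (filled) and the chow array (open), joined by a line and grouped by family. In 57 members the filled point lies left of the open one, and the gap is widest for Lsm7.

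**Figure D2:**
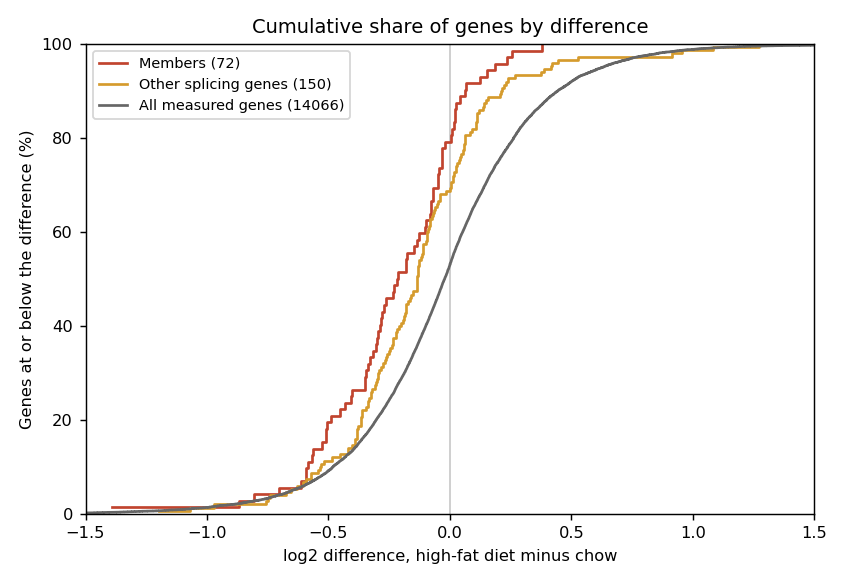
Cumulative share of genes (%) by log2 difference, high-fat diet minus chow, for the 72 members, 150 other splicing genes and all 14066 measured genes. The members' curve crosses 0 at 79.2%, the other splicing genes' at 69.3% and that of all genes near 52.9%.

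The shift was present over the range of signal. Among members with a mean intensity of 400 or more, 26 of 29 were lower, against 44.1% of all genes of such intensity, and their median difference was -0.18 against 0.03. Between 100 and 400, 22 of 32 members were lower, against 56.3% of genes, with medians of -0.17 and -0.04. Under 100, 9 of 11 members were lower, against 52.7%, with medians of -0.31 and -0.03. Among the 166 member probe sets measured on both arrays, 125 were lower (75.3%), against 52.4% of the 20947 such probe sets with 1 gene symbol.

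**Figure D3:**
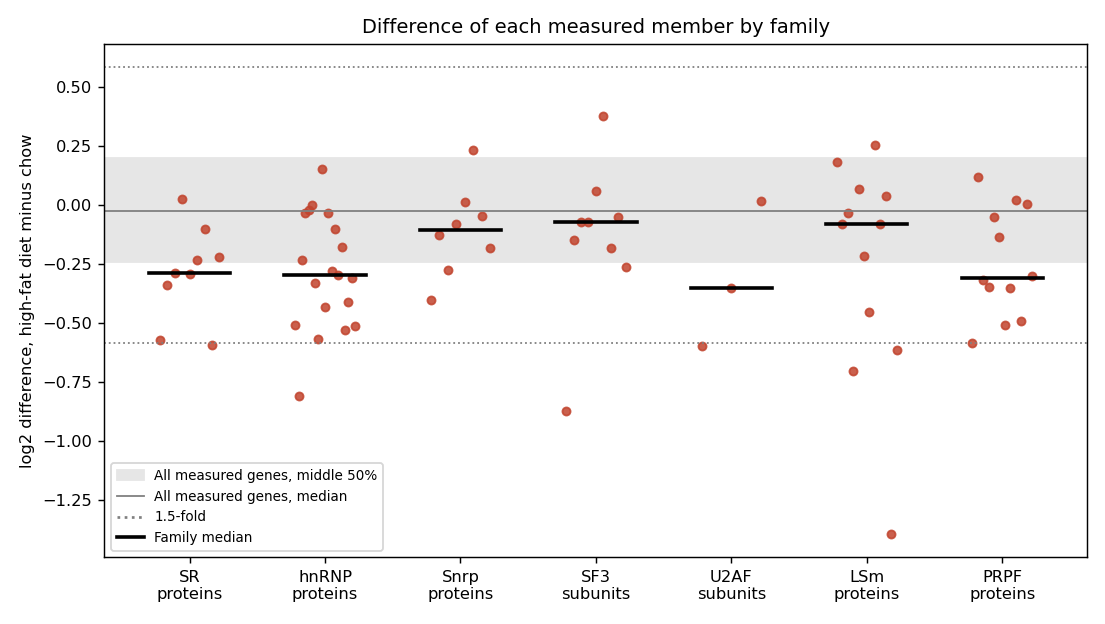
Log2 difference, high-fat diet minus chow, of each measured member by family (points), with the family median (thick bar), and the median (line) and interquartile range (band) of all measured genes. Dotted lines mark 1.5-fold. All 7 family medians lie below that of all genes, and those of the SF3 subunits and LSm proteins are nearest to it.

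The 5 promoters that follow belong to the most strongly lower member of each family that held a member 1.5-fold or more lower. They are shown as examples of the members' control regions, although other probe sets of Hnrnph1 and Sf3a3 were higher, and come from RefSeq (GRCm38.p6), 300 bases around each annotated start, 5′ to 3′ on the gene's strand. That of Lsm7 is chr10:80855160-80855459 on the minus strand, of Sf3a3 chr4:124714611-124714910 on the plus strand, of Hnrnph1 chr11:50376740-50377039 on the plus strand, of U2af1 chr17:31658715-31659014 on the minus strand and of Srsf4 chr4:131873387-131873686 on the plus strand. Capitals mark matches to any of 7 motifs searched on both strands, where overlapping matches run together.
Lsm7: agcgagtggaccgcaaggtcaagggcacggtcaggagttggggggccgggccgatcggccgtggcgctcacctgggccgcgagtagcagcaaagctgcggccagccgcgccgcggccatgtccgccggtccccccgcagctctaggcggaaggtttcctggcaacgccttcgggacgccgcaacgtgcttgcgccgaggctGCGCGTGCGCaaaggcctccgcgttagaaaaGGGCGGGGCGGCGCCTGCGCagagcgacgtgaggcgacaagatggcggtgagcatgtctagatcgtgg
Sf3a3: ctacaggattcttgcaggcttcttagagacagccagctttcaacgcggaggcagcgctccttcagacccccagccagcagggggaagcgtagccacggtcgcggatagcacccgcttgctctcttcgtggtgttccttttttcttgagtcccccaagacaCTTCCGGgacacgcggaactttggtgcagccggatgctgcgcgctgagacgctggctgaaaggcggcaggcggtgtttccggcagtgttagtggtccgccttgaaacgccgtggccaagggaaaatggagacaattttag
Hnrnph1: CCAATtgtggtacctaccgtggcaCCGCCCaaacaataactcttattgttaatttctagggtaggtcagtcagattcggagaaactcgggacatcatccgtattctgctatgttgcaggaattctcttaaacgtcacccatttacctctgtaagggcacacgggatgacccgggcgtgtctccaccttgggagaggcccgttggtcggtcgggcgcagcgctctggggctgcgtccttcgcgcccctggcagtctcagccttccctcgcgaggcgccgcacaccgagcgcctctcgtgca
U2af1: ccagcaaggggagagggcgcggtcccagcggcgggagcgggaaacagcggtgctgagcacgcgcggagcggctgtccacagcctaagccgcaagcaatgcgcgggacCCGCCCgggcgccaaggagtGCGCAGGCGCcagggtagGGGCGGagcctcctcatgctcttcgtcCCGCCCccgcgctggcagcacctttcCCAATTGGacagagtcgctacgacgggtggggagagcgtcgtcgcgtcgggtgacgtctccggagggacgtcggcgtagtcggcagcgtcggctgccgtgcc
Srsf4: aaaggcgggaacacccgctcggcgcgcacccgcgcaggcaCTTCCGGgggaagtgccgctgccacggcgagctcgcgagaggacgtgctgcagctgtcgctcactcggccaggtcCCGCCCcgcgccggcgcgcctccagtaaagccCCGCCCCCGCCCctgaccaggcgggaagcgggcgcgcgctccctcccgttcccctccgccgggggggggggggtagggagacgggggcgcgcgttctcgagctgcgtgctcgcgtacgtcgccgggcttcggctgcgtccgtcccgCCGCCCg
A promoter was found for 64 of the 74 members, and the first listed start was used for each gene. The GC box GGGCGG was in 43 of the 64 (67.2%), against 59.7% of the promoters of 11220 measured genes and 35.9% of all 27025 promoters. The ETS core CCGGAAG was in 18 (28.1%, against 15.9% and 9.12%) and the NRF1 core in 11 (17.2%, against 9.22% and 4.78%). The CCAAT box, CCAAT, was in 32 of the 64, against 38.0% and 37.9%. The E-box CACGTG was in 6 (9.38%, against 9.65% and 7.24%), the TATA box TATAAA in 5 (7.81%, against 8.46% and 14.2%) and the CRE TGACGTCA in 1 (1.56%, against 2.91% and 1.88%). The median number of CG dinucleotides was 25 in member promoters, 19 in those of measured genes and 7 over all promoters. These matches describe letters in a window and show no binding.

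The SR proteins carry an RNA recognition motif and a tail rich in arginine and serine, which kinases phosphorylate. Of 9 measured members 8 were lower on the high-fat diet, with a median difference of -0.29. Srsf4, one of the larger SR proteins, had an intensity of 244.1 on the high-fat diet and 367.6 on chow in its only probe set, 1.51-fold lower. Srsf3, the smallest of the family, was at 256 on the high-fat diet and 379.9 on chow, 1.48-fold lower, and all 6 of its probe sets were lower, by differences from -0.65 to -0.08. Srsf1, the factor first known as SF2, was at 648.1 on the high-fat diet and 818.1 on chow, a difference of -0.34. Of its 6 probe sets above the floor 5 were lower and 1, at 177.9 on the high-fat diet and 167.1 on chow, was higher by 0.09. Srsf6 was lower in all 4 probe sets (-0.32 to -0.13) and Srsf11 in all 3 (-0.29 to -0.16). Srsf9 differed by -0.29 and Srsf5, at 1466.2 on the high-fat diet and 1723.6 on chow, by -0.23, each in its only probe set. Srsf2, which is needed for constitutive splicing, differed by only -0.10, and its 4 probe sets ran from -0.32 to 0.23. Srsf10, a repressor when dephosphorylated, was the exception in direction, at 153.4 on the high-fat diet and 150.7 on chow. The other 3 probe sets of Srsf10 were all lower, down to -0.35, so even the sign for Srsf10 varies between probe sets.

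The hnRNP family showed the same direction in 17 of 19 members, with a median difference of -0.30. Hnrnph1, which binds runs of G, was at 442.6 on the high-fat diet and 773.6 on chow, 1.75-fold lower and the most different of the family. Its other probe set, however, was higher, at 92.7 on the high-fat diet and 67.5 on chow, a difference of 0.46, so the direction for Hnrnph1 is not settled. Its paralogs Hnrnph3 and Hnrnph2 differed by -0.31 and -0.03. Hnrnpl, which binds CA repeats, was at 70.9 on the high-fat diet and 104.9 on chow, 1.48-fold lower. Hnrnpdl, a relative of Hnrnpd whose transcript is itself alternatively spliced, was at 556.5 on the high-fat diet and 801.9 on chow, 1.44-fold lower. All 6 of its probe sets measured on both arrays were lower, by -0.95 to -0.19. Hnrnpd, which binds AU-rich elements of unstable messages, was at 196 on the high-fat diet and 279.4 on chow, a difference of -0.51.

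Hnrnpu, a nuclear scaffold protein, was lower in 5 of 5 probe sets, by -0.95 to -0.19, and the one used was at 619.3 on the high-fat diet and 878.8 on chow. Hnrnpa2b1 was lower in 4 of 4 probe sets, by -0.63 to -0.17, and both probe sets of Hnrnpul2 were lower, by -0.44 and -0.41. Hnrnpa1, a classic repressor of exon inclusion, was at 220.5 on the high-fat diet and 297.2 on chow, a difference of -0.43. Hnrnpa1 has near-identical copies in the mouse genome, and its value may include their transcripts. Single probe sets of Hnrnpul1, Hnrnpa0 and Hnrnpm differed by -0.33, -0.30 and -0.28. Near 0 was Hnrnpk, which binds C-rich RNA, at 1601.4 on the high-fat diet and 1637.3 on chow, with its 4 probe sets within -0.08 and 0.06. Hnrnpf and Hnrnpr differed by -0.10 and -0.02 in the probe set used, but from -0.46 to 0.14 and from -0.38 to 0.34 over all probe sets measured on both arrays. Hnrnpc, which binds U tracts, was the only member of the family higher by more than 0.1, at 1074.5 on the high-fat diet and 965.5 on chow, and both of its probe sets were higher (0.04 and 0.15). Hnrnpll, a regulator of splicing in lymphocytes, was at 370.7 on the high-fat diet and 369.9 on chow, while its other probe set differed by -0.56. Hnrnpab differed by -0.18 in the probe set used, and 4 of its 5 probe sets were lower. The fifth was at 1013.2 on the high-fat diet and 541.4 on chow, a difference of 0.90.

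The Snrp genes encode Sm proteins and proteins of the U1 and U2 particles, and they differed less. Of 8 measured members 6 were lower, with a median of -0.10. Among the Sm core proteins, which form the ring on the U snRNAs, Snrpg was at 410.6 on the high-fat diet and 496.1 on chow, a difference of -0.27, with -0.46 in its other probe set. Snrpb was at 533.1 on the high-fat diet and 604.8 on chow, a difference of -0.18, and differed by 0.01 in its other probe set, while Snrpe and Snrpd3 differed by -0.08 and -0.05. Snrpf went the other way, at 92.5 on the high-fat diet and 78.7 on chow, a difference of 0.23. Snrpc, a U1 protein, differed by -0.13. Of the U2 proteins, Snrpa1 was at 106.4 on the high-fat diet and 105.3 on chow, and Snrpb2 at 131.4 on the high-fat diet and 173.7 on chow, a difference of -0.40. The other probe set of Snrpb2 was higher by 0.30, which leaves its direction unsettled.

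The SF3 subunits hold the U2 particle at the branch point, the adenosine that attacks the start of the intron. Of 9 members 7 were lower, but the median was only -0.07. Sf3a3 stood apart in its brighter probe set, at 85.7 on the high-fat diet and 156.6 on chow, 1.83-fold lower, whereas its other probe set was at 68.2 on the high-fat diet and 59.3 on chow, a difference of 0.20. Sf3b1, the large subunit that grips the branch point, was at 645.2 on the high-fat diet and 773.9 on chow, a difference of -0.26, and 3 of its 4 probe sets were lower (-0.44 to 0.07). Sf3a2 was at 573.3 on the high-fat diet and 649.8 on chow, a difference of -0.18, and Sf3b4 differed by -0.15. Sf3b6, the subunit next to the branch point adenosine, was the most strongly higher of all members, at 376.3 on the high-fat diet and 289.4 on chow, 1.30-fold. Its other probe sets above the floor differed by 0.03 and -0.0027. Sf3b3 was at 354.2 on the high-fat diet and 339.2 on chow. In Sf3b2 the probe set used differed by -0.07 and 4 others by -0.50 to -0.14, while one, at 272.5 on the high-fat diet and 112.7 on chow, was 2.42-fold higher. Sf3b5 was at 480.7 on the high-fat diet and 504.9 on chow in the probe set used, but at 256.9 on the high-fat diet and 162.7 on chow, 0.66 higher, in the other. Sf3a1 was at 127.8 on the high-fat diet and 132.1 on chow, a difference of -0.05, with other probe sets at -0.75 and 0.08.

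U2AF recognises the end of the intron as a heterodimer. U2af1, the small subunit that reads the terminal AG, was at 232 on the high-fat diet and 350.1 on chow, 1.51-fold lower. U2af2, the large subunit that binds the pyrimidine tract, was at 285.6 on the high-fat diet and 363.7 on chow, 1.27-fold lower. U2af1l4, a paralog of the small subunit, was at 195.3 on the high-fat diet and 192.7 on chow. Each of them had 1 probe set with a single gene symbol.

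The LSm family held Lsm7, the most different member, and had 8 of 12 genes lower with a median of -0.08. In the LSm ring that binds the U6 snRNA, 3 of 6 measured proteins were lower and 3 higher. Lsm7 was at 73.4 on the high-fat diet and 192.7 on chow, 2.63-fold lower, in its only probe set. Lsm6 was at 83.7 on the high-fat diet and 127.9 on chow, 1.53-fold lower, and all 3 of its probe sets measured on both arrays were lower, by -0.94 to -0.39. Lsm2 was at 40.8 on the high-fat diet and 55.8 on chow, a difference of -0.45 near the floor. Their partners in the same ring were level or higher: Lsm3 was at 651.1 on the high-fat diet and 573 on chow, Lsm4 at 415.8 on the high-fat diet and 396.8 on chow, and Lsm8 at 213.4 on the high-fat diet and 207.4 on chow. Transcripts of one ring thus did not share a direction on these arrays. Of the U7 particle, which cuts histone messages rather than splicing, Lsm10 was at 244.1 on the high-fat diet and 397.1 on chow, 1.63-fold lower, while Lsm11 was at 50.5 on the high-fat diet and 51.6 on chow. Lsm1, which takes the place of Lsm8 in the cytoplasmic ring of mRNA decay, differed by -0.08. Lsm14a and Lsm14b, proteins of cytoplasmic processing bodies, differed by -0.21 and -0.08, but the other probe sets of Lsm14a above the floor differed by 0.37 and 0.01. Lsm12 was at 113.3 on the high-fat diet and 95 on chow, and its other probe set differed by -0.39.

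Of the PRPF proteins 9 of 12 were lower, with a median of -0.31. Among the 5 measured members of the U4/U6.U5 particle, 4 were lower. Prpf31, which binds the U4 snRNA, was at 58.7 on the high-fat diet and 83.5 on chow, a difference of -0.51, but its other probe set differed by 0.48. Prpf8, the scaffold of the catalytic centre, was at 489.2 on the high-fat diet and 608.7 on chow, a difference of -0.32. Prpf3 and Prpf6 differed by -0.30 and -0.13. Prpf4 was at 136.8 on the high-fat diet and 134.8 on chow, while its other probe set, at 47.1 on the high-fat diet and 32.8 on chow, was higher by 0.52. Prpf38a, which joins with the tri-snRNP, was at 61.6 on the high-fat diet and 92.3 on chow, a difference of -0.58. Its relative Prpf38b was at 190 on the high-fat diet and 266.7 on chow, 1.40-fold lower, and all 3 of its probe sets measured on both arrays were lower, by -0.66 to -0.49. All 3 probe sets of Prpf39, a U1-associated protein, were lower by -0.37 to -0.34. Prpf4b, a kinase of the spliceosome, was at 130.2 on the high-fat diet and 165.4 on chow, a difference of -0.35, with 4 of 6 probe sets lower (-0.68 to 0.16). Prpf19, a ubiquitin ligase of the spliceosome, was lower by little in 4 of 4 probe sets (-0.16 to -0.05). Prpf18, a factor of the later catalytic step, was at 130.6 on the high-fat diet and 120 on chow, and Prpf40b at 64.3 on the high-fat diet and 64 on chow.

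Probe sets of a single member often disagreed. Of 42 members with several probe sets measured on both arrays, 14 were lower in all of them (33.3%, against 26.5% of 5196 such genes). Higher in all were 2 (Hnrnpc and Prpf4, against 22.1% of genes), and 26 were mixed, against 2672 of the 5196 genes. All probe sets thus went one way in 38.1% of these members and 48.6% of such genes. The mean over the probe sets was lower in 35 of the 42, against 52.7% of genes. Members had 136 such probe sets, and a gene with more of them has more chances to be mixed. Disagreement that reached 1.5-fold in at least 1 probe set has no share over all genes beside it here. It occurred in Hnrnpab, Hnrnph1, Prpf4b, Sf3a1, Sf3a3, Sf3b2, Sf3b5 and Srsf1. Of these, Hnrnph1 and Sf3a3 were counted above as 1.5-fold lower. The other 5 members of that count were Lsm7, Lsm10, U2af1 and Srsf4, which rest on 1 probe set above the floor each, and Lsm6, whose 3 probe sets were all lower. Which part of a transcript each probe set reads was not analysed here.

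**Figure D4:**
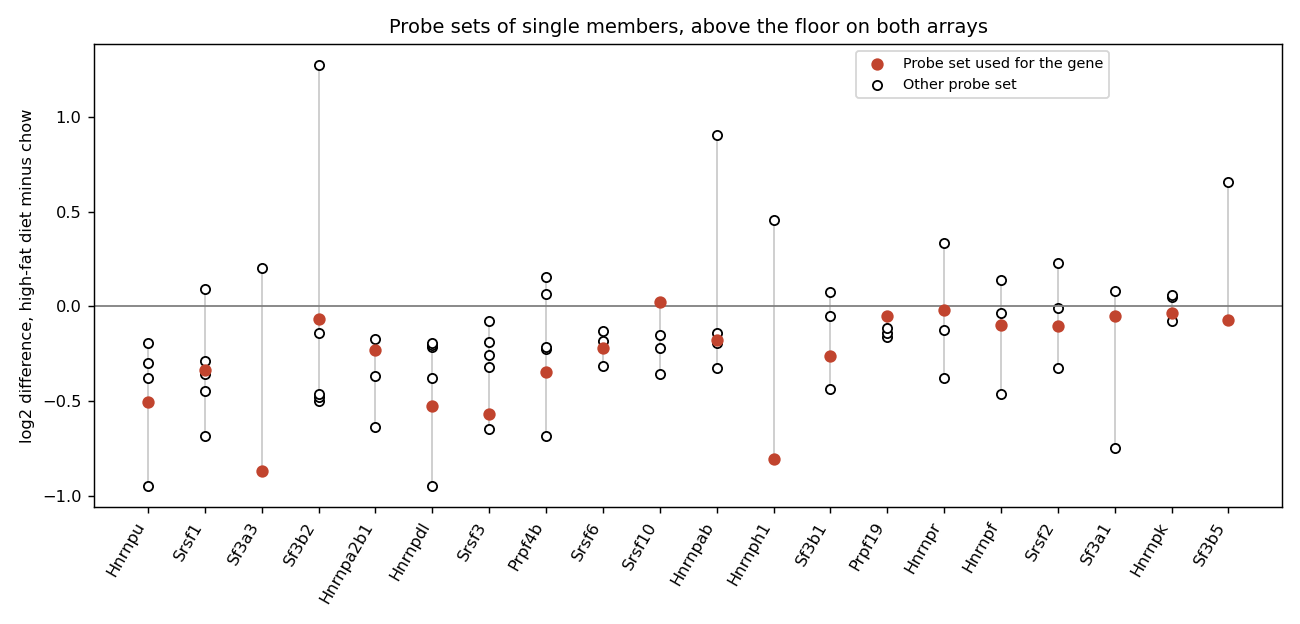
Log2 difference, high-fat diet minus chow, of single probe sets measured on both arrays, for the 20 members with at least 4 such probe sets or with probe sets of both directions of which 1 reached 1.5-fold. The filled point is the probe set used for the gene; Hnrnpu, Hnrnpdl and Srsf3 lie wholly below 0, and Sf3b2, Hnrnpab, Hnrnph1 and Sf3b5 have a probe set far above the rest.

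Other genes of the splicing pathway, from a hand-written list outside the 7 families, were also lower more often than not. Of 168 listed genes 155 had a probe set of their own and 150 were measured, of which 104 were lower (69.3%, against 52.9% of all genes), with a median difference of -0.14. The medians of the list and of the members were not tested against each other, and they came to -0.16 and -0.17 with the mean of probe sets. At 1.5-fold 11 were lower and 4 higher, against 6.4% and 5.82% of all genes, shares of 7.33% and 2.67%. Of 45 other spliceosome genes 33 were lower, with a median of -0.14. Snrnp70, the U1 protein bound by SR proteins, was at 200.3 on the high-fat diet and 246.8 on chow, a difference of -0.30, with -0.78 and -0.70 in other probe sets measured on both arrays. Pnn, pinin, was 1.69-fold lower, at 113.9 on the high-fat diet and 192.3 on chow, and differed by -1.22 and -1.41 in its other probe sets. Snrnp25, of the minor spliceosome, was 2.12-fold higher in its only probe set, at 99.5 on the high-fat diet and 47 on chow. Isy1 was 2.42-fold higher in the probe set used, at 114.1 on the high-fat diet and 47.2 on chow, but its other probe sets differed by -1.31 and -0.91.

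Of 26 SR-related genes and SR kinases 19 were lower, with a median of -0.21. The kinase Clk1, which phosphorylates SR proteins in the nucleus, was at 452.2 on the high-fat diet and 555.4 on chow, a difference of -0.30. Tra2b, an SR-like activator, was at 295.7 on the high-fat diet and 374 on chow, a difference of -0.34, although a weak probe set of it, at 34.9 on the high-fat diet and 28.3 on chow, was higher. Luc7l3 was at 207.7 on the high-fat diet and 308.8 on chow, 1.49-fold lower, but differed by only -0.07 in the other probe set measured on both arrays. Scaf4 was at 82.8 on the high-fat diet and 63.8 on chow, 1.30-fold higher, but its other probe sets were lower, by -0.44 and -0.13. Of 51 tissue-regulated splicing regulators 34 were lower, with a median of -0.17. Ptbp1, the polypyrimidine tract binding protein, was at 681.7 on the high-fat diet and 767.8 on chow, a difference of -0.17, while a probe set nearly as bright was at 682.5 on the high-fat diet and 579.1 on chow. Rbm15, which guides RNA methylation, was at 27.9 on the high-fat diet, the floor itself, and 64 on chow. Its difference of -1.20 depended on the floor and was -0.12 with the floor at the 60th percentile and -0.87 with log2(value + 16). Rbm4b was 2.10-fold lower, at 37.4 on the high-fat diet and 78.6 on chow, but another probe set was 0.19 higher. Taf15, at 53.9 on the high-fat diet and 21.9 on chow, was measured only on the high-fat diet array and at least 1.88-fold higher. Lower members made up 9 of 15 in the exon junction and export list (median -0.08). Upf1, the helicase of nonsense-mediated decay, was at 56.5 on the high-fat diet and 95 on chow, 1.68-fold lower. Thoc3, of the export complex THO, was at 247.9 on the high-fat diet and 189.5 on chow, 1.31-fold higher, whereas its other probe set, at 122 on the high-fat diet and 142.2 on chow, differed by -0.22. In the SMN complex list 9 of 13 were lower, with a median of -0.11. The SMN complex loads Sm rings onto snRNAs, but the list also holds genes outside it, such as Coil, Phax and Snupn. Gemin8, at 26.4 on the high-fat diet and 44.5 on chow, was measured only on the chow array and at least 1.59-fold lower. Gemin5 was at 66.1 on the high-fat diet and 48.6 on chow, 1.36-fold higher, with -0.02 in its other probe set measured on both arrays.

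The 2 arrays had nearly equal trimmed means of 99.4 on the high-fat diet and 99.5 on chow. The reference genes, often used for scaling, had a median difference of 0.06, with 10 of 14 higher. Among them Nono, with a difference of 0.06, was also on the list of other splicing genes. Of 10 mature adipocyte markers 9 were measured, and their summed intensity was 46469 on the high-fat diet and 43234 on chow, with a median difference of 0.11. Among cells that a fat pad holds, markers of the mesothelial lining were lower in 6 of 8 cases, with summed intensities of 1198 on the high-fat diet and 1656 on chow and a median of -0.68. Macrophage markers were lower in 6 of 10, with a median of -0.19 (summed 6946 on the high-fat diet and 7068 on chow). Endothelial markers were lower in 3 of 8, with a median of 0.05 (summed 2215 on the high-fat diet and 2236 on chow). Fibroblast and progenitor markers were lower in 2 of 6 measured (median 0.18). T and NK cell markers were lower in 2 of 5 (median 0.01) and B cell markers in 5 of 7 (median -0.11). Proliferation markers were higher in 6 of 7, with a median of 0.59 and 3 of them measured on 1 array only. Of 8 testis germ cell and 8 epididymis markers 4 each were measured. Of these, 3 testis germ cell and 2 epididymis markers were measured on 1 array only, so their sums include values under the floor. The testis germ cell markers were higher in 3 of 4 (median 0.55; summed 239 on the high-fat diet and 133 on chow), with Sycp3 at 132.5 on the high-fat diet and 60.8 on chow. The epididymis markers were lower in 3 of 4 (median -0.49; summed 161 on the high-fat diet and 192 on chow). The part of any of these cells in the members' values was not tested.

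**Figure D5:**
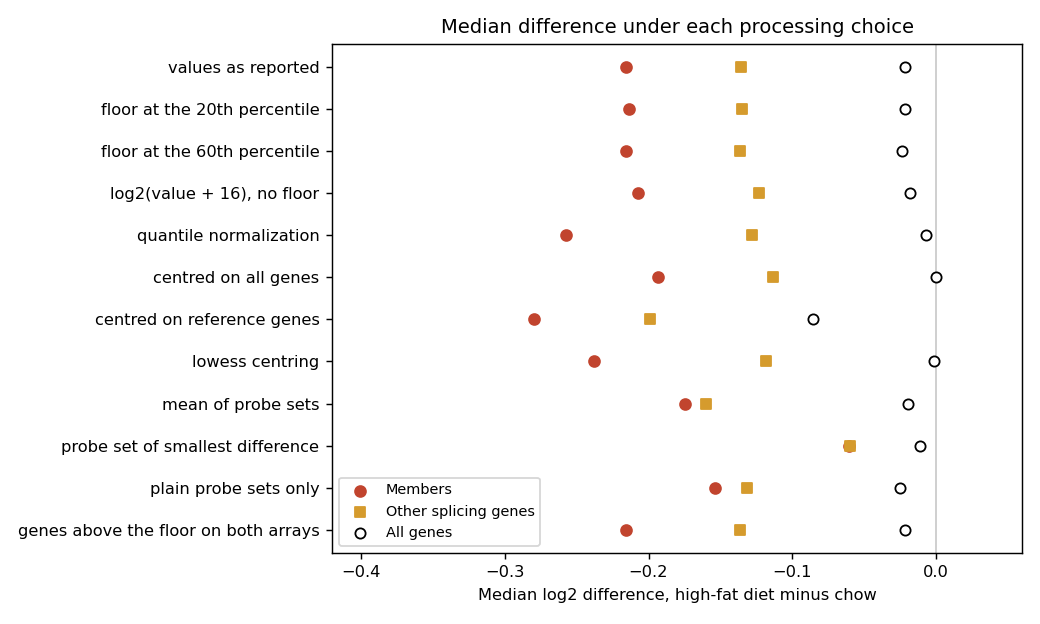
Median log2 difference, high-fat diet minus chow, of the members, the other splicing genes and all genes under each processing choice. The members' median lies below that of all genes in every row shown, from -0.28 with centring on reference genes to -0.061 with the probe set of smallest difference.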

How the data were processed

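The deposited table gives 1 linear intensity per probe set and array, on a scale set by the authors. Per the labels' protocols, biotin-labelled cRNA was made from total RNA. How probes were summarised and scaled is not given in the sources used here. No detection calls came with the table, and the number of arrays limits the precision. Names came from the platform annotation: 34945 had 1 symbol, 932 several and 9160 none; only the first kind was used. All 197 member probe sets matched RefSeq by gene ID, with 0 symbols changed.

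Values under the floor were raised to it before log2 was taken. With 1 array per diet no test was made, and genes were counted at 2-fold and 1.5-fold. All 72 measured members were described by family. Of them and of the other splicing list, 55 genes were named by rule, mostly with both arrays' values. These were the 3 largest differences per family and direction, every 2-fold member and members with opposed probe sets. The extremes and 4 fixed genes of the other splicing list were added. Members, lists and rules were chosen with earlier results of these data known. The steps were tested on simulated data. There all probe sets of a changed gene shared the same large difference, so small differences and opposed probe sets were not covered. Protein sequences were not used here, so a planned description of protein features was left out. Python 3.11.15, numpy 2.4.6, pandas 2.3.3 and statsmodels 0.14.6 were used.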

Additional observations from a re-analysis of the deposited data

Results flagged for a closer look

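Of 19 probe sets annotated to several genes, 1 of them in the 7 families, 16 were measured, and all were left out of the members for that reason. Among these, 4 probe sets annotated to both Snurf and Snrpn, which share an imprinted transcript, were 1.5-fold or more higher on the high-fat diet array. They come from the same arrays but lie outside the members' counts. The first was at 474.2 on the high-fat diet and 113.4 on chow, a difference of 2.06. Another was at 154.6 on the high-fat diet and 64.5 on chow, 1.26 higher, and a further one at 116 on the high-fat diet and 70.5 on chow, 0.72 higher. The last was at 1371.1 on the high-fat diet and 888.7 on chow, 0.63 higher. These 4 all lay in the direction opposite to most members, and the other 2 Snurf and Snrpn probe sets were below the floor on both arrays. No replicate bears on the difference, and its cause was not tested.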

How the results depend on the processing

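Under 11 other processing choices, 10 planned and 1 (only genes measured on both arrays) chosen after seeing the data, the members' median stayed below 0 and below that of all genes. It ran from -0.28 with centring on reference genes to -0.061 with the probe set of smallest difference, a choice that shrinks differences by construction, and all genes then had -0.09 and -0.01. The share of lower members was least with the probe set of smallest difference, at 49 of 72 (68.1%, against 52.4% of all genes). It was 46 of 64 with plain probe sets only (71.9%, against 53.0%). The largest share was 65 of 72 with centring on reference genes (90.3%, against 61.3%). By family, 1 median turned, that of the Snrp proteins, to 0.01 with the probe set of smallest difference. Members 1.5-fold or more lower numbered 7, but 4 with log2(value + 16), quantile normalization, lowess centring or the probe set of smallest difference. Those counts of 4 were 5.56% of members, near the 6.08%, 5.78%, 5.84% and 4.85% of all genes in that order. With centring on reference genes 11 members were 1.5-fold or more lower, 15.3% against 8.37% of all genes. With plain probe sets only, 1 member, Sf3b5, was 1.5-fold higher (1.56%, against 6.19% of all genes). Lsm7 remained 2-fold or more lower throughout, from -1.46 to -1.22. Other splicing genes 1.5-fold or more higher numbered 4, but 2 with the floor at the 60th percentile, the mean of probe sets or the probe set of smallest difference. Of all genes, 3.65%, 5.05% and 4.44% were that much higher in those settings, in that order. Other splicing genes 1.5-fold or more lower numbered 11, but 7 with the floor at the 60th percentile, where 3.96% of all genes were. With the smallest-difference probe set, 15 of 55 named genes had the opposite sign. Among those 1.5-fold or more different these were Hnrnph1 (0.46), Sf3a3 (0.20), Rbm4b (0.19, also with plain probe sets) and Isy1 (-0.91, and -0.32 with the mean of probe sets). Others were Prpf31 (0.48), Snrpb2 (0.30), Srsf1 (0.09), Prpf4b (0.06), Thoc3 (-0.22) and Scaf4 (-0.13), and 5 more by under 0.06. With plain probe sets 7 of 50 turned, Tra2b (0.29) and Ptbp1 (0.24) among them, with the mean of probe sets 8 of 55, centred on reference genes 7 and with quantile normalization 1. No paired analysis was possible because each diet had 1 array. Intensities near the floor, such as those of Lsm2 and Rbm15, limit what can be read from them.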

Other observations

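Other probe sets annotated to a gene of the 7 families together with another gene or gene copy were also left out of the counts. Of the genes below only Hnrnpa1 and U2af1l4 are also among the 74 members. The 4 annotated to both Gm6793 and Hnrnpa3 were all lower, by -0.57 to -0.16, the brightest on chow at 271.4 on the high-fat diet and 403.2 on chow. The 3 annotated to Hnrnpa1 and its copies were lower by -0.45 to -0.33, near the -0.43 of the Hnrnpa1 probe set used. Those shared by Snrpd2, Snrpa and Lsm5 with gene copies were higher by 0.07, 0.16 and 0.09, and that shared by Snrpd1 and Gm14277 was lower, at -0.31. A weak probe set shared by U2af1l4 and Igflr1 was at 41.5 on the high-fat diet and 34 on chow, a difference of 0.29. Another of that pair was below the floor on both arrays. The measured hnRNP probe sets in this group thus lay with the hnRNP members, the Snrp ones on both sides of 0 and those of Lsm5 and U2af1l4 above 0.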
